A study of Mus musculus with 2 samples.

Results

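The genes described here are the adult alpha globins Hba-a1 and Hba-a2, the adult beta globins Hbb-bs and Hbb-bt, the erythroid 5-aminolevulinate synthase Alas2, the band 3 anion exchanger Slc4a1 and the alpha globin chaperone Ahsp. They were chosen by symbol as a set of red cell genes. Of the 7 symbols, 6 matched a gene among the 43346 of the tables, with 17 annotated transcripts among 103639. Ahsp had no identifier in the name tables used and was not analysed here.

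RNA came from the mammary glands of 8-week-old mice of the inbred strain C57BL/6J. The 2 libraries, replicates 2 and 1, form 1 group with no treatment, genotype or contrast, so no test between groups was possible and no p-value is given. Each is labelled as pooled from males and females, and no genetic change is named. The labels number the libraries as biological replicates 2 and 1. Both carry the same donor identifier but separate biosample identifiers. The labels do not say whether the tissue came from separate animals, so the spread between the libraries may be partly technical. The labels do not give the reproductive state. Levels are in TPM, a share of all transcripts that is corrected for transcript length, and fragments are the expected counts of the deposited tables.

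Adult haemoglobin is a tetramer of alpha and beta chains, each holding a haem group. Red cell precursors in the bone marrow and spleen make these chains and the haem, lose their nucleus, and enter the blood as reticulocytes that still hold globin mRNA. A solid organ taken with the blood in its vessels can therefore contain globin RNA without making red cells. In bulk RNA, fewer cells of a type and less RNA per cell cannot be told apart.

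The alpha globin genes lie near each other on chromosome 11 and the beta globin genes on chromosome 7, and within each pair the coding sequences are almost identical. The coding sequences of Hba-a1 and Hba-a2, 429 nt each with the stop codon, differed at 1 base, C381T, counted from 1 at the A of the start codon with the Hba-a1 base first. Those of Hbb-bs and Hbb-bt, 444 nt each, also differed at 1 base, C417T, with the Hbb-bs base first. The stretches around these bases are shown, in GENCODE M21 sequence on GRCm38, because they are all that separates the coding parts of each pair. The capital letter marks the base that differs. The Hba-a1 stretch lies at chr11:32284313-32284373 and the Hba-a2 stretch at chr11:32297130-32297190, both on the plus strand. The Hbb-bs stretch lies at chr7:103826665-103826722 and the Hbb-bt stretch at chr7:103812656-103812713, both on the minus strand and both in the last coding exon.
Hba-a1: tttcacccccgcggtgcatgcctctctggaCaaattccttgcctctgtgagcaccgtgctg
Hba-a2: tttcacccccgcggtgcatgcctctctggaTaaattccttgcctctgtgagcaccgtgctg
Hbb-bs: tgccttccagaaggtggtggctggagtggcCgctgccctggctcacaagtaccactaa
Hbb-bt: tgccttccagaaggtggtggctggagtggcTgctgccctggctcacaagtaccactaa

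All 4 adult globin genes carried CCAAT followed by ATATAA close before their RefSeq start, which is shown for 1 gene of each pair. Entries were found for 5 of the genes, and Slc4a1 and Ahsp had none. The letters searched, on both strands of the 250 bases before the start, were ATATAA, the core of a TATA box, the CCAAT box, the core CACCC bound by erythroid Krüppel-like factors, and the GATA factor core AGATAA. Capitals mark these letters, and no marked stretches overlap. The Hba-a2 stretch (chr11:32296392-32296488, plus strand, GRCm38.p6) runs from 100 to 4 bases before the start, and the Hbb-bs stretch (chr7:103827929-103828011, minus strand) from 83 to 1 base before it.
Hba-a2: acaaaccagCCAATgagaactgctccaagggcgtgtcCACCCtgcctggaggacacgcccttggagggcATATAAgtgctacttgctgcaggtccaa
Hbb-bs: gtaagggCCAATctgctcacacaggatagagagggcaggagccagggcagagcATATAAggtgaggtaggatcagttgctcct

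ATATAA began 28 bases before the start in Hba-a1, 31 in Hba-a2, 30 in Hbb-bs and 29 in Hbb-bt, whereas 9.1% of the 32851 promoter windows of the table held it anywhere. CCAAT on the same strand began 88 and 91 bases before the start in Hba-a1 and Hba-a2, and 76 and 75 bases before it in Hbb-bs and Hbb-bt. It was held by 33.8% of all windows. CACCC was present in all 4 globin windows and in that of Alas2, but also in 52.0% of all windows. Each alpha gene held it on both sides of its same-strand CCAAT, and the beta genes held it only upstream of theirs. AGATAA was found in Hbb-bs and, on the opposite strand, 86 to 81 bases before the start of Alas2, against 9.99% of all windows. The windows of Hba-a1 and Hba-a2 aligned without a mismatch, with 6 gap bases, and those of Hbb-bs and Hbb-bt were 77.4% identical. These matches describe letters in a window, not bound sites.

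In this tissue the globin genes were far above the other red cell genes, and alpha globin was above beta globin in both libraries. The 4 adult globin genes summed to 4418 TPM in replicate 2 and 1705 TPM in replicate 1, a mean of 3062 ± 1919 (SD, n = 2). That was 0.442% of all TPM in replicate 2 and 0.170% in replicate 1. The summed expected counts over genes behind these values were 42400470 fragments in replicate 2 and 56323489 in replicate 1, and both libraries held the markers of the labelled tissue, with all 5 luminal epithelial, 4 myoepithelial and 6 white adipocyte genes of the lists above 1 TPM in each.

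Hba-a2 (ENSMUSG00000069917.7, chromosome 11, 32296489 to 32297298, mm10) had the highest mean, at 1736 TPM in replicate 2 and 722 TPM in replicate 1, or 1229 ± 717 (SD, n = 2). Hba-a1 (ENSMUSG00000069919.7, chromosome 11, 32283511 to 32284465) stood at 1667 TPM in replicate 2 and 437 TPM in replicate 1, a mean of 1052 ± 869. Hbb-bs (ENSMUSG00000052305.5, chromosome 7, 103826534 to 103828096) followed at 933 TPM in replicate 2 and 476 TPM in replicate 1, a mean of 705 ± 323. The ranges of these 3 genes over the libraries overlapped, so their order is not separated beyond the spread. In replicate 2 both alpha genes were above Hbb-bs, while in replicate 1 Hbb-bs lay between Hba-a2 and Hba-a1. By rank of TPM among all genes, the 3 stood at 63, 65 and 134 in replicate 2 and at 154, 260 and 237 in replicate 1, in the order Hba-a2, Hba-a1, Hbb-bs.

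The remaining genes were well below these. Hbb-bt (ENSMUSG00000073940.3, chromosome 7, 103812524 to 103813996), the minor adult beta globin gene here, stood at 82.1 TPM in replicate 2 and 70.1 TPM in replicate 1, a mean of 76.1 ± 8.51 (SD, n = 2). Alas2 (ENSMUSG00000025270.9, chromosome X, 150547375 to 150570638), which makes the first intermediate of haem in red cell precursors, stood at 5.85 TPM in replicate 2 and 4.11 TPM in replicate 1, a mean of 4.98 ± 1.23. Slc4a1 (ENSMUSG00000006574.11, chromosome 11, 102348824 to 102366203), the chloride and bicarbonate exchanger of the red cell membrane, was listed at 0.05 TPM in replicate 2 and 0.01 TPM in replicate 1. Its ranges and those of Alas2 and Hbb-bt overlapped neither each other nor those of the 3 higher globin genes. Behind these levels were 1235 fragments of Hbb-bt in replicate 2 and 1489 in replicate 1, 253 and 294 of Alas2, and 7 and 2 of Slc4a1.

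**Figure D1:**
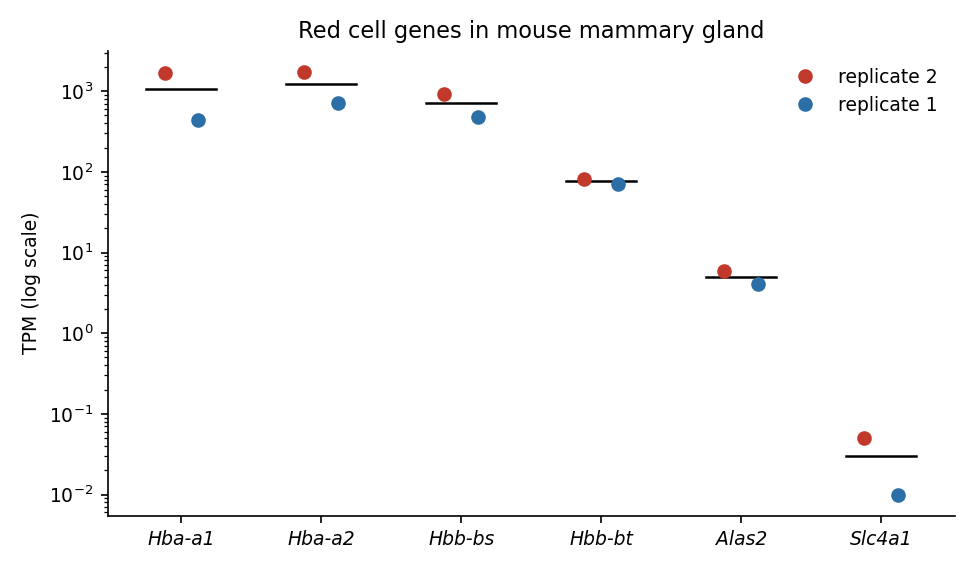
TPM of the 6 red cell genes found in the tables, on a log scale, with a point for each library (replicate 2 left, replicate 1 right) and a bar at their mean. The levels run from a mean of 1229 TPM for Hba-a2 down to 0.03 TPM for Slc4a1, and each gene's point is higher in replicate 2.

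The Slc4a1 value depended on the estimate used. In replicate 1 its 2 fragments were at or under the floor of 3 fragments applied to each library, and its count was 4.65 times as high in replicate 2 per total, with a 95% counting interval of 0.885 to 45.9. The authors' posterior mean TPM for the same gene was 4.13 in replicate 2 and 2.53 in replicate 1, although the fragments were the same. For the 5 other genes the posterior mean lay close to the TPM, as for Alas2 at 6.00 in replicate 2 and 4.37 in replicate 1.

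The alpha genes outweighed the beta genes unequally in the libraries. Alpha globin summed to 3403 TPM in replicate 2 and 1159 TPM in replicate 1, and beta globin to 1015 TPM in replicate 2 and 546 TPM in replicate 1. Alpha over beta was thus 3.35 in replicate 2 and 2.12 in replicate 1 on the TPM scale. In fragments, alpha globin took 71.2% of the adult globin fragments of replicate 2 (Clopper-Pearson 95% interval 70.8 to 71.6) and 57.8% of those of replicate 1 (57.2 to 58.4). The intervals do not overlap, and they cover counting error only. The library totals cancel in this ratio, so no scaling applied alike to all genes of a library can change it. An adjustment by GC content, given below, did change the comparison. It reduced the gap between the log2 count ratios of the pairs from 0.85 to 0.24.

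Within the alpha pair, Hba-a1 took 49.0% of the TPM in replicate 2 and 37.7% in replicate 1. In fragments its share was lower, at 44.3% and 33.5%. Its TPM rests on an effective length, the length used for TPM, of 281 nt in replicate 2 and 286 nt in replicate 1. That of its coding transcript was 485 and 489 nt. The TPM level, rank and share of Hba-a1 thus depend on the form it was assigned, and a longer form would lower them. Within the beta pair, Hbb-bs took 91.9% in replicate 2 and 87.2% in replicate 1. These splits rest on few letters. Of the 479 windows of 76 nt, the length of a read, in the coding transcript of Hba-a2, 19.2% occurred in no transcript of Hba-a1. For the coding transcript of Hba-a1 38.0% of windows, and for its retained-intron transcript 18.1%, occurred in no transcript of Hba-a2. In the coding transcripts of Hbb-bs and Hbb-bt, 35.8% and 43.5% of windows occurred in no transcript of the other gene. The reads were paired, and single windows leave out the mate of a read, so they do not give the share of fragments that can be assigned. The split within either pair depends on how shared reads were divided, and the sum of each pair is the firmer value. The authors' posterior SD of the count, 112 fragments for either alpha gene in replicate 2 and 64.4 in replicate 1, was small beside counts of 14410 and 18146 in replicate 2 and 5392 and 10694 in replicate 1 for Hba-a1 and Hba-a2.

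The transcript tables gave the near-identical alpha genes opposite forms. For Hba-a2, the spliced coding transcript took 100% of the gene's TPM in replicate 2 and 99.96% in replicate 1. For Hba-a1, a transcript annotated as a retained intron took 99.4% in replicate 2 and 98.8% in replicate 1, at 1657 TPM and 432 TPM, while the spliced coding transcript of the same gene stood at 9.93 TPM in replicate 2 and 5.25 TPM in replicate 1. The retained-intron model of Hba-a1 is 494 nt long, of which 113 nt lie in an intron of the coding transcript and 381 nt in its exons. None of its 419 windows of read length is specific to it among the globin transcripts, and 81.9% also occur in the retained-intron model of Hba-a2, which was given 0 fragments in replicate 2 and 3.86 in replicate 1. The coding model of Hba-a1 is 699 nt long, against 554 nt for that of Hba-a2. A single stretch of read length thus cannot assign a fragment to this form. Paired reads were not examined, and whether Hba-a1 RNA kept its intron was not tested.

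For Hbb-bs the form differed between the libraries. The retained-intron transcript of this gene took 64.5% of its TPM in replicate 2 and 30.02% in replicate 1, at 602 TPM and 143 TPM. The spliced coding transcript stood at 331 TPM in replicate 2 and 333 TPM in replicate 1. The whole difference in the TPM of Hbb-bs thus sat in the retained-intron form, whose log2 count ratio, replicate 2 over replicate 1, came to 1.98 (95% interval 1.91 to 2.05), against -0.10 (-0.15 to -0.05) for the coding form. The deposited models of these forms, 549 nt and 778 nt long, were longer than those of the later annotation release, at 344 nt and 628 nt, so sequence comparisons for Hbb-bs use the later models. In the later release, 55 nt of the retained-intron form lie in an intron and 80.3% of its windows also occur in the coding form and in Hbb-bt.

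**Figure D2:**
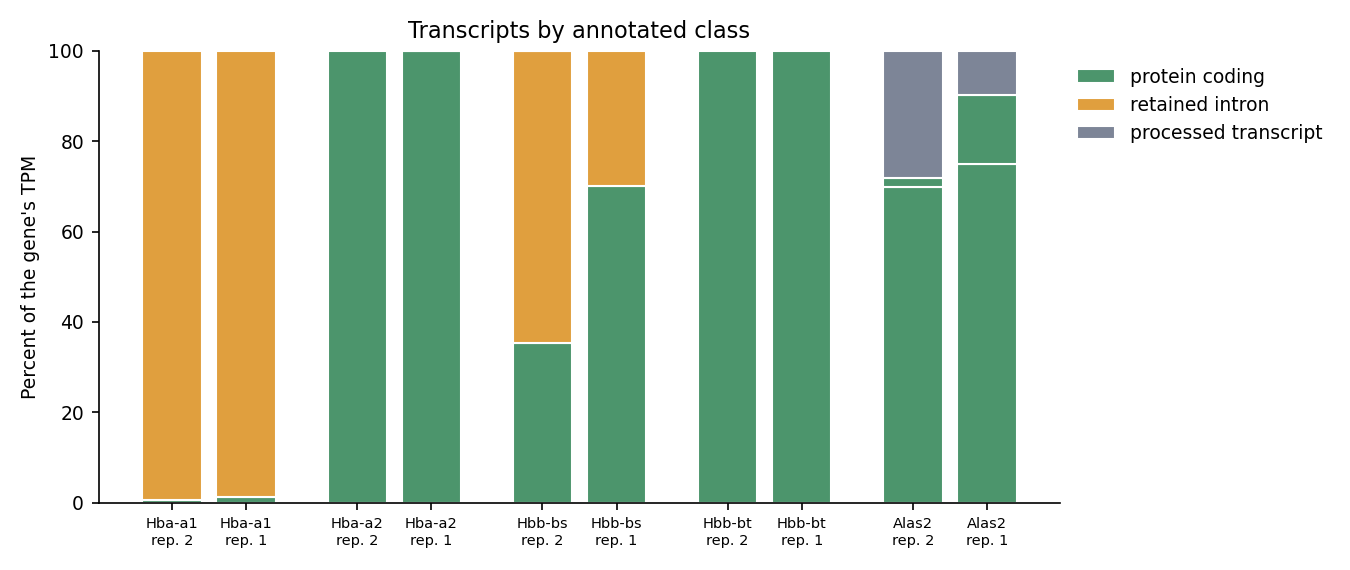
Percent of each gene's TPM assigned to its transcripts, stacked by annotated class, for replicate 2 (left bar) and replicate 1 (right bar) of each gene. Hba-a1 is nearly all retained intron at 99.4% and 98.8%, Hba-a2 is nearly all protein coding, and Hbb-bs has 64.5% retained intron in replicate 2 and 30.02% in replicate 1.

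The shorter form lowered the mean effective length of Hbb-bs to 416 nt in replicate 2, against 499 nt in replicate 1. Of its log2 TPM ratio of 0.97, 0.63 came from fragments, 0.26 from effective length and 0.08 from a term common to all genes. For Alas2, 0.24 of a log2 TPM ratio of 0.51 came from effective length. Its main coding transcript took 69.8% of the TPM in replicate 2 and 75.0% in replicate 1, and a short processed transcript 28.2% and 9.9% on 18.0 and 6.29 fragments. Another coding transcript took 2.05% in replicate 2 and 15.09% in replicate 1, on 6.2 and 44.95 fragments. For Hba-a1, Hba-a2 and Hbb-bt the effective length contributed at most 0.02 to the log2 TPM ratio between the libraries. Counts were therefore used to compare the libraries.

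Alpha globin was higher in replicate 2 by more than beta globin and Alas2 were. Each count was scaled by the library's total, and a gene counted as beyond 2-fold if the whole 95% interval of its ratio (Clopper-Pearson) lay past that limit. Of the 5 genes with a mean of at least 1 TPM, all 5 had a higher TPM in replicate 2, as did 52.4% of the 14510 genes so filtered, and 2 were called beyond 2-fold higher there, against 8.73% of those genes. The filter used the mean of both libraries and left out Slc4a1. The median log2 TPM difference of the 5, replicate 2 minus replicate 1 after adding 1 to each TPM, was 0.97, against 0.05 over all genes tested.

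Hba-a1 had 14410 fragments in replicate 2 and 5392 in replicate 1, a log2 count ratio of 1.83 (interval 1.78 to 1.87), or 3.55-fold. Hba-a2 had 18146 in replicate 2 and 10694 in replicate 1, a log2 ratio of 1.17 (1.14 to 1.21). Added up, the pair had a log2 ratio of 1.43 (1.40 to 1.45), which is 2.69-fold and past 2-fold. The beta genes stayed within 2-fold, with Hbb-bs at 11936 fragments in replicate 2 and 10246 in replicate 1, a log2 ratio of 0.63 (0.59 to 0.67). The Hbb-bt ratio was 0.14 (0.03 to 0.25) and turned to -0.03 when mitochondrially encoded and muscle genes were left out of the totals. The beta pair together had a ratio of 0.58 (0.54 to 0.61). For Alas2 the interval of the ratio, 0.19 (-0.06 to 0.44), included 0, so its difference in fragments was not separable from counting error. Its transcripts went both ways, at 0.32 (0.06 to 0.59) for the main coding form and 1.99 (0.60 to 3.62) for the processed form. The other coding form stood at -2.5 (-4.02 to -1.26).

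The libraries also differed with GC content, and the globin pairs differ in it. The alpha genes had a GC content of 57.5% and 57.2%, and Hbb-bs, Hbb-bt and Alas2 of 52.3%, 50.8% and 52.8%. Genes of the GC content of the alpha pair had a median log2 count ratio of 0.49, and those of the GC content of the beta pair -0.11. With these medians removed, the alpha pair stood at 0.93 (0.91 to 0.96) and the beta pair at 0.69 (0.65 to 0.73), and Hba-a2 at 0.70 was no longer past 2-fold. Hba-a1, at 1.31 (1.27 to 1.36), was then the only 1 of the 5 called, against 6.64% of the 14439 genes with a GC value. The beta genes moved the other way, Hbb-bs to 0.68 and Hbb-bt to 0.32. The gap between the alpha and beta pairs was thus 0.24 after removal of the GC medians, against 0.85 before it.

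**Figure D3:**
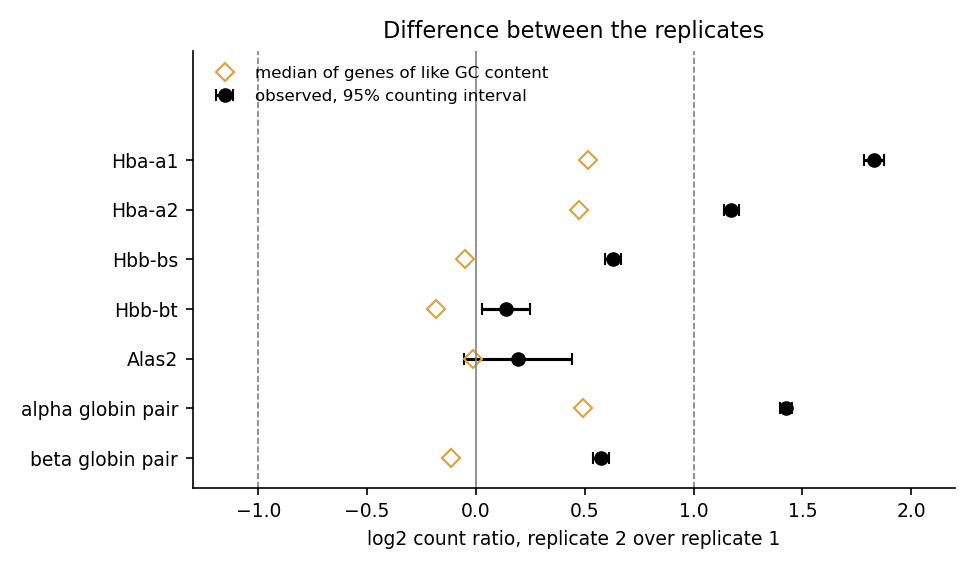
Log2 count ratio of replicate 2 over replicate 1 for the 5 genes with a mean of at least 1 TPM and for the summed alpha and beta pairs. Black points have 95% counting intervals, open diamonds mark the median ratio of genes of like GC content, and dashed lines mark 2-fold. Hba-a1, Hba-a2 and the alpha pair lie beyond 2-fold, and their diamonds lie near 0.5.

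Other differences between the libraries went along with these and their part in the globin values was not tested. The share of TPM in mitochondrially encoded genes and 13 skeletal muscle genes was 4.28% for replicate 2, against 20.4% for replicate 1. The 13 muscle genes alone summed to 16.05 TPM in replicate 2 and 30330 TPM in replicate 1. All 13 were beyond 2-fold higher in replicate 1, against 9.43% of all genes tested. Platelet genes, another product of blood, summed to 131 TPM in replicate 2 and 103 TPM in replicate 1. Of the 11 platelet genes, 5 had a mean of at least 1 TPM, and 2 of these were beyond 2-fold higher in replicate 2, against 8.73% of all genes tested, the glycoprotein genes Gp1bb at 13.6 TPM in replicate 2 and 1.88 TPM in replicate 1 and Gp5 at 1.85 and 0.56 TPM. The median difference of the 5 was 0.67, and 0.13 with the GC trend removed. With it removed, the log2 count ratio fell from 1.82 to 0.713 for Gp1bb and from 1.64 to 0.905 for Gp5, both below 2-fold. Pf4, the platelet chemokine, made up most of the platelet sum in each library and was level at 79.5 TPM in replicate 2 and 79.4 TPM in replicate 1. Whether its RNA came from platelets was not tested. Neutrophil genes, also carried in blood, summed to 48.8 TPM in replicate 2 and 63.0 TPM in replicate 1, and 3 of 10 were higher in replicate 2, against 52.4% of all genes tested. The largest part of the sum was the lactoferrin gene Ltf, at 19.6 TPM in replicate 2 and 24.8 TPM in replicate 1. Whether its RNA came from neutrophils was not tested. Of the neutrophil genes 1 was beyond 2-fold higher in replicate 1, against 9.43% of all genes tested, and this was the calprotectin gene S100a8, at 0.73 TPM in replicate 2 and 6.51 TPM in replicate 1. Blood endothelial genes summed to 832 TPM in replicate 2 and 785 TPM in replicate 1. None of the 7 was beyond 2-fold, against 8.73% of all genes tested higher in replicate 2 and 9.43% higher in replicate 1.

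Embryonic globins and several genes of the red cell membrane were at or near 0, in contrast to the adult globins. All 6 embryonic and minor globin genes, which are used before birth or at low level, were at or under 3 fragments in both libraries. Hbb-y, Hbb-bh1, Hbb-bh2 and Hba-x had 0 fragments, which allows up to 3 fragments a library, or 0.0708 CPM in replicate 2 and 0.0533 CPM in replicate 1. Hbq1a had 3 fragments in replicate 2 and 1 in replicate 1, and Hbq1b had 1 in each.

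Among 13 red cell membrane genes, 4 were at or under the floor in both libraries. These were the band 3 linker Epb42, with 1 fragment in replicate 2 and 0 in replicate 1, the Rh proteins Rhag, with 0 in each, and Rhd, with 2 in each, and the blood group protein Kel, with 0 and 3. Members of the list with wide use outside red cells were measured well, such as Gypc at 36.6 TPM in replicate 2 and 42.4 TPM in replicate 1, Epb41 at 21.7 and 24.2 TPM, and Dmtn at 17.2 and 13.7 TPM. Of the 6 with a mean of at least 1 TPM, 3 were beyond 2-fold higher in replicate 1, against 9.43% of all genes tested, and all 3 are also expressed in skeletal muscle. The ankyrin Ank1 stood at 0.35 TPM in replicate 2 and 29.1 TPM in replicate 1, the beta spectrin Sptb at 1.39 and 11.2 TPM, and the tropomodulin Tmod1 at 0.85 and 18.5 TPM.

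Of 8 erythroid transcription factor and receptor genes, 7 had a mean of at least 1 TPM, as did 14510 of all 43346 genes. Most of the 7 are shared with other blood lineages or vessels. The highest were the GATA cofactor Zfpm1 at 52.4 TPM in replicate 2 and 17.9 TPM in replicate 1, Lmo2, also used in endothelium, at 42.2 and 16.9 TPM, and the erythropoietin receptor gene Epor at 17.1 and 9.96 TPM. Zfpm1 was the 1 of these 7 beyond 2-fold higher in replicate 2, against 8.73% of all genes tested. With the GC trend removed, its log2 count ratio fell from 2.15 to 1.05. Klf1, a factor largely restricted to red cell precursors and named after its values were seen, had 19 fragments in replicate 2 and 7 in replicate 1, or 0.47 and 0.12 TPM. Gata1, also used in mast cells and megakaryocytes and likewise named afterwards, had 76 fragments in replicate 2 and 100 in replicate 1.

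Haem synthesis outside Alas2 was fully represented. All 8 enzymes of the list were above 1 TPM in both libraries. None was beyond 2-fold, against 8.73% of all genes tested higher in replicate 2 and 9.43% higher in replicate 1. The housekeeping counterpart of Alas2, Alas1, stood at 130.7 TPM in replicate 2 and 91.4 TPM in replicate 1, and Alad, the next enzyme of the pathway, at 127.9 and 98.5 TPM. Ferrochelatase, Fech, which places iron in the ring, stood at 24.8 TPM in replicate 2 and 41.7 TPM in replicate 1. The median log2 difference of the list was 0.02.

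Of the 5 genes that bring iron and haem precursors into erythroblasts, all were above 1 TPM in both libraries, and 1 was beyond 2-fold higher in replicate 1, against 9.43% of all genes tested. That was the transferrin receptor Tfrc, at 3.45 TPM in replicate 2 and 8.87 TPM in replicate 1. Among 12 genes of late red cells, 7 were above 1 TPM in both libraries, led by Blvrb at 174.8 TPM in replicate 2 and 83.8 TPM in replicate 1 and the peroxiredoxin Prdx2 at 103.4 and 136 TPM, both used in many cell types. The 2,3-bisphosphoglycerate enzyme gene Bpgm was the 1 of 7 beyond 2-fold higher in replicate 1, against 9.43% of all genes tested, at 3.04 TPM in replicate 2 and 11.7 TPM in replicate 1. The late red cell list had a median log2 difference of 0.06, near the 0.05 of all genes. Adult globin TPM was 755 times that of Alas2 in replicate 2 and 415 times in replicate 1.

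**Figure D4:**
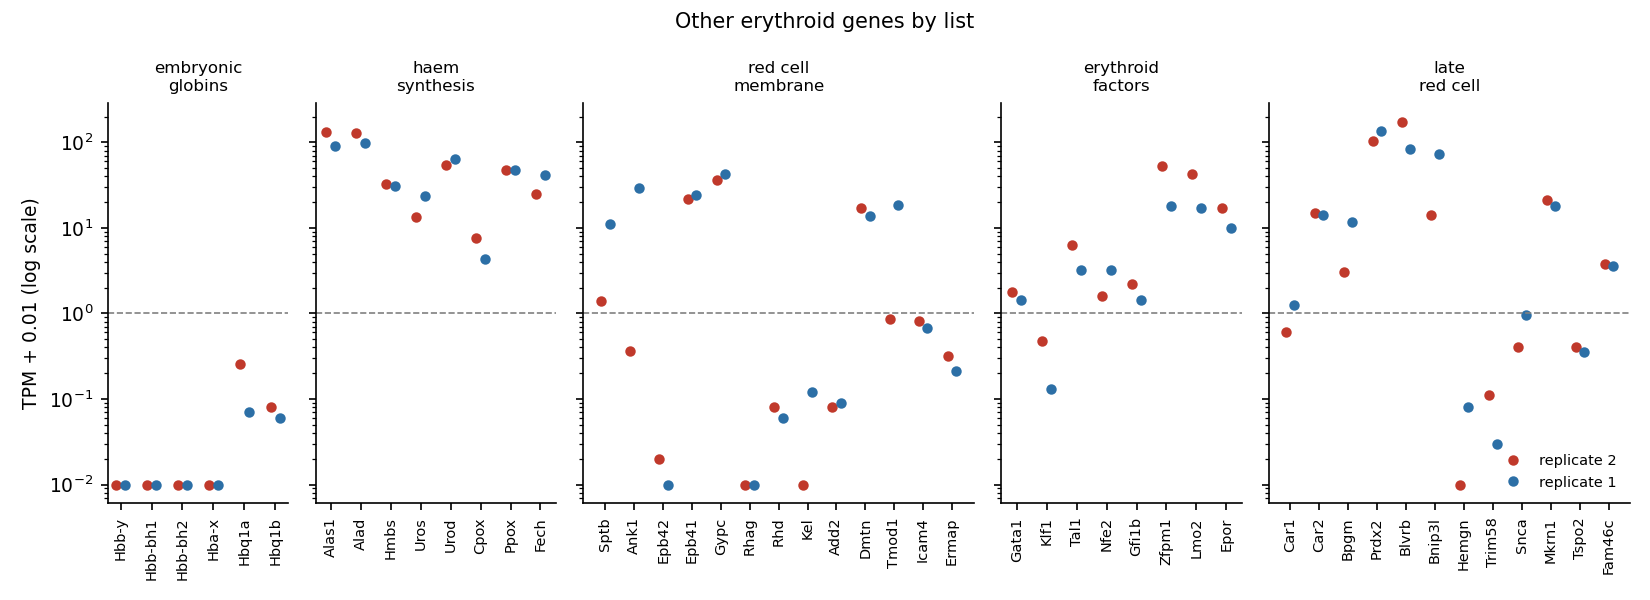
TPM plus 0.01, on a log scale, of the genes in 5 erythroid lists, with a red point for replicate 2 and a blue point for replicate 1. Dashed lines mark 1 TPM. Embryonic globins lie below it throughout, haem synthesis genes above it, and the red cell membrane list is split between genes near 0 and genes with use in other tissues.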

How the data were processed

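Stranded paired-end reads of 76 nt were made from polyadenylated RNA over 200 nt after rRNA depletion, per the labels. The authors deposited, per the file headers, expected counts and TPM, with posterior means of both, and each transcript's percent of its gene, on mm10 and GENCODE M4 per the text notes. The aligner is not given in the sources used; neither is the quantifier. Replicates were not pooled. Left out were 26248 entries named by a number, all at 0, and 97 spike-in entries. GENCODE M21 gave names (42462 of 43346 genes matched), positions and GC, and RefSeq GRCm38.p6 the promoters. The mm9 contigs and junctions were not used here.

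Expected counts were rounded and scaled by library totals, and the 95% Clopper-Pearson interval of each ratio was computed over 14510 genes with a mean of at least 1 TPM. Intervals cover counting error only, since the labels name no molecular identifiers. The GC trend was the median ratio in 20 bins over 13221 protein-coding genes. On simulated counts with counting error only, 200 of 200 genes changed 8-fold were called, and 0 of 14310 unchanged genes. The simulation held no spread between replicates and no GC trend, so it gives no rate of false calls for these libraries.

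The genes and lists were chosen with earlier results of these data known. Genes were named only from the red cell genes, list members at or under 3 fragments in both libraries, the up to 5 highest of each list and those beyond 2-fold; exceptions are marked, and 2 genes chosen for the membrane list were left out of it. Alternatives used edgeR 4.0.16 and DESeq2 1.42.0 in R 4.3.3, spike-in sums, totals without mitochondrial and muscle genes, fold limits of 1.5 and 4, pseudocounts of 0.1, posterior means and each replicate left out. Scripts ran on Python 3.11.15 with scipy 1.17.1, pandas 2.3.3, numpy 2.4.6 and, for figures, matplotlib 3.10.9.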

Additional observations from a re-analysis of the deposited data

How the results depend on the processing

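The count of 2 of 5 genes beyond 2-fold held with TMM factors, DESeq2 size factors and no filter, and was 3 with spike-in sums or a limit of 1.5-fold. It was 1 when mitochondrially encoded and muscle genes were left out of the totals, 1 with the GC trend removed, 1 of 3 with each globin pair added up, 0 with a limit of 4-fold, and 0 with the pairs added up and the GC trend removed, an alternative chosen after seeing the data. In the first 2 of these settings Hba-a2 fell below the limit, at log2 ratios of 0.998 and 0.70. Relative to library totals, the scalings shift every log2 ratio alike, by 0.07 (TMM), 0.13 (DESeq2), 0.76 (spike-in sums) and -0.18 (totals without mitochondrial and muscle genes), so the gap between genes is unchanged. The median log2 TPM difference ranged from 0.70 to 0.97. Leaving out a replicate gave 1159 to 3403 TPM for alpha globin, 546 to 1015 TPM for beta globin and 2.12 to 3.35 for alpha over beta. That last ratio averaged 2.74 in TPM, 1.92 in counts and 2.75 with all counts placed on the spliced coding transcripts, an alternative chosen after seeing the data. No paired analysis was possible because there is only 1 group. At this depth, genes with 3 fragments or fewer are below what can be compared.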

Other observations

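Globins outside red cells and the genes that clear haemoglobin were measured beside the red cell genes. Myoglobin, Mb, the oxygen store of muscle, stood at 1.78 TPM in replicate 2 and 320 TPM in replicate 1, the library with the skeletal muscle transcripts, at a log2 count ratio of -7.67. Cytoglobin, Cygb, of fibroblast-like cells, stood at 79.96 TPM in replicate 2 and 43.6 TPM in replicate 1, and neuroglobin, Ngb, at 0.42 and 0.38 TPM. The haemoglobin-binding protein gene Hp, which adipose tissue also expresses, was high in both libraries at 512 TPM in replicate 2 and 432 TPM in replicate 1. Haemopexin, Hpx, the haem-binding plasma protein, was the 1 of 5 clearance genes beyond 2-fold higher in replicate 2, against 8.73% of all genes tested. It stood at 12.2 TPM in replicate 2 and 0.80 TPM in replicate 1. Among the remaining clearance genes, the haem oxygenase Hmox1 stood at 32.7 TPM in replicate 2 and 34.2 TPM in replicate 1, the macrophage receptor Cd163 at 2.00 and 3.32 TPM, and the haemopexin receptor Lrp1 at 213 and 108 TPM.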
